A study of Mus musculus with 4 samples.

Results

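HR+ (hormone receptor positive) luminal cells were a small population of the mouse mammary organoids. They were chosen by 2 genes: Areg, which encodes the growth factor amphiregulin, at 300 CPM or more, and Krt14, a keratin of basal cells, at under 300 CPM. CPM is the number of a gene's UMIs (barcodes that count single captured RNA molecules) per 1000000 UMIs of all genes. The rule was applied to cells with 1000 to 6000 detected genes and less than 5% of UMIs from mitochondrial genes, and 525 of 17360 such cells met it (33268 cells were deposited in all). HR- luminal cells, used for comparison, had less than 100 CPM of Areg and less than 300 CPM of Krt14, which 13787 cells met. The 221 cells with 100 to 300 CPM of Areg and the 153 cells past 300 CPM for both genes were in neither class. The HR+ cells nearest the limit held 304, 302, 304 and 316 CPM of Areg in the 4 libraries, and the nearest cells below it held 296, 292, 288 and 298 CPM.

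The organoids are 3-dimensional cultures grown from mammary cells of wild-type mice or of mice with a monoallelic germline truncating mutation of Brca2 (Brca2mut/WT), 9 to 11 months old. Both genotypes were analysed without treatment (control) and after hydroxyurea (HU), which stalls DNA replication forks by depleting deoxynucleotides. In the study HU was given at 1 mM for 24 h, with 4 days of recovery before passaging, repeated over serial passages. Every library was made after thawing and 3 days of culture. The labels name passages 0 and 4 without tying them to a library. How often the cells of an HU library had been exposed to HU is therefore not known. The 4 groups were wild-type control, wild-type HU, Brca2mut/WT control and Brca2mut/WT HU, and values below are given in this order. Each group is 1 droplet library of organoids marked with 4 antibody tags, so no test between groups was made and no p-value is given. The titles give 2 replicates per library, a legend of the study 3 mice per condition, and no key from tag to animal was used here.

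The libraries held 302135155, 258821284, 243430259 and 258118001 gene UMIs in all cells. HR+ cells held 3900349, 3759301, 2766426 and 2596241 UMIs, with a median of 26005, 27798, 25014 and 27567.5 UMIs and 5012, 5225, 4918 and 5259.5 genes per cell. HR- luminal cells had a median of 24848, 24978, 25046 and 27714.5 UMIs per cell, close to the HR+ medians. The lower quartile was 18893.5, 21797, 19856 and 8885.5 UMIs in HR+ cells and 19550, 18969, 18509.5 and 20557.5 UMIs in HR- luminal cells, far lower in HR+ cells in Brca2mut/WT HU alone. Intervals below are exact 95% intervals (Poisson for CPM, Clopper-Pearson for shares). They cover counting error only, not differences between animals, cultures or runs. UMI counts are not divided by gene length, so levels are compared between cells and not between genes.

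In the mammary gland HR+ luminal cells are the sensors of ovarian and pituitary hormones. They carry receptors for estrogen, progesterone and prolactin and pass the signal to neighbouring cells through secreted factors such as amphiregulin, which binds the epidermal growth factor (EGF) receptor, Wnt4 and RANK ligand (Tnfsf11). HR- luminal cells include the precursors of the alveolar cells that make milk proteins.

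Areg lies on mouse chromosome 5 from 91139599 to 91148432, plus strand, in GRCm38 (the mm10 build of the files). The 250 bases before its RefSeq start site are shown because this gene chose the cells. Those before Sprr1a, a small proline-rich protein of cornified envelopes, are shown as an example from the genes with the largest HR+ to HR- ratios. The windows are chr5:91139349-91139598 on the plus strand and chr3:92485882-92486131 on the minus strand of GRCm38.p6, each written 5′ to 3′. Capitals mark the full cAMP response element TGACGTCA in Areg and the AP-1 motif TGAGTCA in Sprr1a.

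Areg: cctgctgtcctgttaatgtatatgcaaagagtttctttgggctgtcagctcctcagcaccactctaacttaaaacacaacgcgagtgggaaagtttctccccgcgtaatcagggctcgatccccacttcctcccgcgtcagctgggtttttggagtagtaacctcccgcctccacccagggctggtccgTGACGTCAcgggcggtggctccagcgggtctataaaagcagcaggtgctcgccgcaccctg
Sprr1a: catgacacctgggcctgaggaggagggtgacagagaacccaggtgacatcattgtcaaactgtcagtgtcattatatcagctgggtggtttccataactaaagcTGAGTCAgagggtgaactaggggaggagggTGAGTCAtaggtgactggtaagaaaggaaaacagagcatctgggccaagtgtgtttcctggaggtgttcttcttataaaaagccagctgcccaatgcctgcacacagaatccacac

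The Areg window held 1 cAMP response element, 61 bases before the start site. These letters, which read the same on both strands, stood in 1.55% of all 32851 windows of this length and in 2.51% of the 676 windows matched to genes higher in HR+ cells. The Sprr1a window held 2 AP-1 motifs, 146 and 116 bases before the start. TGACTCA or TGAGTCA, searched on both strands, stood in 4.46% of all windows and in 6.80% of those of the higher genes. Of the 671 higher genes, Areg included, 498 had a window.

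The label was checked with 5 HR+ markers that the rule did not use: Prlr (prolactin receptor), Pgr (progesterone receptor), Foxa1 (the factor that opens chromatin for the estrogen receptor), Esr1 (estrogen receptor alpha) and Cited1 (a transcriptional co-regulator). In the 4 libraries, 73.6, 70.2, 69.9 and 68.8% of HR+ cells held UMIs of at least 3 of the 5, against 1.72, 1.08, 1.72 and 1.26% of HR- luminal cells. Most HR+ cells therefore carried several of the defining markers at once, 372 of 525 in all. None of the 5 was detected in 7.55, 7.09, 10.6 and 16.1% of HR+ cells, 52 in all. Of all HR+ cells, 26 passed the rule on a single Areg UMI, all with less than 5000 UMIs, and 23 of them had none of the 5 markers. HR+ cells under 5000 UMIs numbered 13, 6, 9 and 22, so they were most frequent in Brca2mut/WT HU, where they made up 19.6% of HR+ cells (against 7.02% of HR- luminal cells). The HR+ shares and the counts of genes past the thresholds below stayed within 1.5 times their values when cells under 5000 UMIs were left out. Of the HR- luminal cells, 95.6, 93.9, 92.0 and 91.8% held a UMI of Lalba, Cd14, Elf5 or Kit. The rest met the rule without these markers and were kept in the class.

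Of the listed markers of fibroblasts, endothelial cells, immune cells and adipocytes, Dcn alone was high in HR+ cells. Of the fibroblast markers Dcn, Col1a1, Col1a2, Col3a1, Pdgfra and Lum, the proteoglycan gene Dcn reached 707, 1229, 1803 and 1050.0 CPM in HR+ cells and 4.97, 1.78, 2.53 and 1.20 CPM in HR- luminal cells. The other 5 fibroblast genes summed to 5, 0, 0 and 2 UMIs over all HR+ cells of a library, and Col3a1 and Lum were at 0 in all 4, which allows up to 0.769, 0.798, 1.08 and 1.16 CPM. HR+ cells with a Dcn UMI numbered 72, 55, 59 and 35 and were epithelial by their markers. Those cells held 7041, 9123, 9175 and 8656 CPM of the luminal keratin Krt19 and 2094, 2115, 2239 and 1819 CPM of the epithelial adhesion gene Epcam, against 5125, 6837, 6625 and 6534 CPM and 2152, 1845, 2255 and 1752 CPM in HR+ cells without a Dcn UMI. Their Prlr level was 1143, 1390.1, 1816 and 1488 CPM against 814, 841, 692 and 948 CPM, higher in the cells with Dcn in each library. The cells with a Dcn UMI were also deeper, with a median of 26529, 29431, 27986 and 31503 UMIs against 24383, 26721, 23391.5 and 21475, and the part of depth in the Prlr difference was not tested. Endothelial markers (Pecam1, Cdh5, Kdr, Emcn) summed to 2.31, 0.798, 0.361 and 0 CPM, with Cdh5, Kdr and Emcn at 0 in every library. Immune markers (Ptprc, Cd68, Lyz2, Cd3e, Cd79a) summed to 6.67, 6.12, 2.89 and 1.54 CPM, chiefly from Cd68, with the leukocyte gene Ptprc at 0. Adipocyte markers (Adipoq, Plin1, Fabp4) summed to 2.05, 1.33, 0.361 and 1.16 CPM, from Fabp4 alone. Outside these lists, and named after its values were seen, the globin gene Hba-a1 was at 43.1, 26.9, 46.3 and 27.0 CPM in HR+ cells.

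The share of HR+ cells was 2.99% in wild-type control (interval 2.55 to 3.49%) and 3.05% in wild-type HU (interval 2.58 to 3.59%). In Brca2mut/WT it was 2.73% in the control (interval 2.26 to 3.27%) and 3.40% with HU (interval 2.81 to 4.08%), each of all quality-filtered cells. All 4 intervals overlapped, and the order of the shares changed with the rule: wild-type HU was highest without cells under 5000 UMIs (3.07% against 3.01% in Brca2mut/WT HU), and wild-type control was highest when 4 receptor and factor genes chose the cells in place of Areg (4.18% against 3.95%). The numbers of cells were 159, 141, 113 and 112.

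Within each library the HR+ share differed far more between antibody tags than it did between libraries. A cell was given to a tag pool where its leading tag stood at least 3 times above the next over that tag's background. HR+ cells made up 6.97, 4.88, 12.2 and 21.2% of pool 4 and 11.5, 7.56, 0.413 and 2.35% of pool 2. They made up 0.959, 0.848, 1.06 and 0.434% of pool 1 and 0.404, 0.465, 0.1702 and 0.291% of pool 3. Pool 3 was thus the poorest in HR+ cells in all 4 libraries, and pool 4 the richest in 2 (both Brca2mut/WT), while in the wild type pool 2 had more. The intervals of pools 3 and 4 did not overlap in any library. The origin of the HR+ cells was therefore unequal between libraries: pool 2 gave 25.8, 63.8, 2.65 and 9.82% of them, and pool 4 gave 35.8, 15.6, 70.8 and 49.1%. Cells with no leading tag numbered 35, 12, 16 and 38, or 22.0, 8.51, 14.2 and 33.9% of the HR+ cells, and their median depth was 22571, 7726.5, 7244 and 7455.5 UMIs. Since same-numbered tags are not known to mark the same animal across libraries, the differences between libraries in gene levels below cannot be told apart from differences between animals or passages. Levels within pools are given where a result turns on them, as values of those cells and not as a matched comparison.

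**Figure D1:**
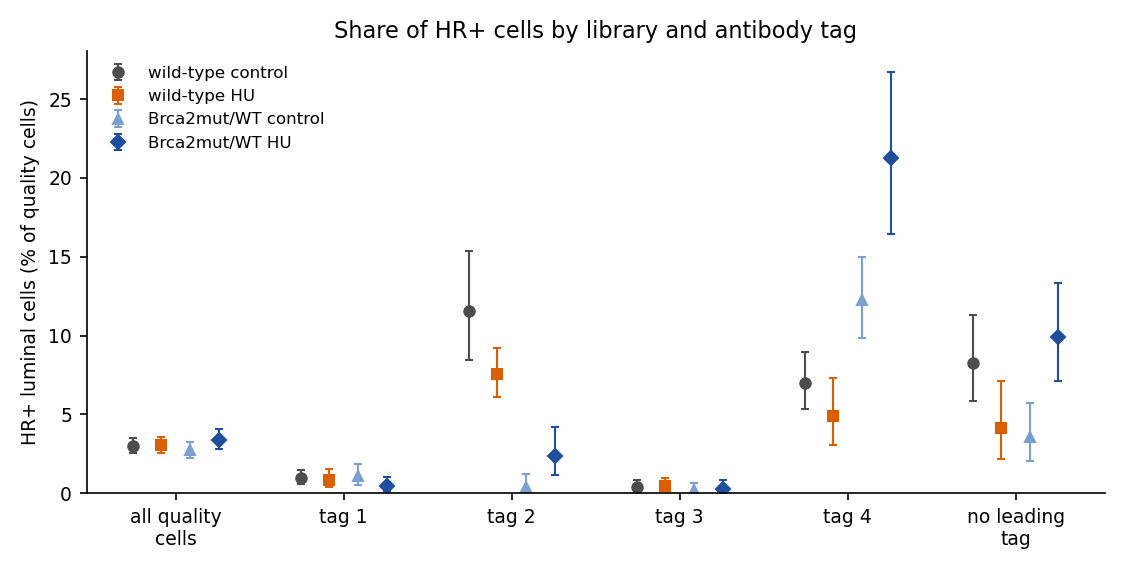
HR+ cells as a percentage of quality-filtered cells (y axis) in each antibody tag pool of each library (x axis), with exact 95% Clopper-Pearson intervals as bars. Pool 3 sits at 0.465% or lower in all 4 libraries, and pool 4 of Brca2mut/WT HU reaches 21.2%.

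The 11 HR+ cells of pool 2 in Brca2mut/WT HU stood apart from the rest. They had a median of 4709 UMIs, no UMI of Prlr, Pgr or Dcn, and 65.5 CPM of Krt19. The HR+ cells of pool 2 in wild-type HU held 8810.4 CPM of Krt19. Prlr, Pgr and Krt19 thus did not bear out the HR+ label of these 11 cells. They met the rule and stay counted in the HR+ shares and levels of their library. Of all HR+ cells 8 carried 2 or more tags (1.52%, against 1.11% of HR- luminal cells), and 7 shared their barcode with a cell of another library.

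Next, HR+ cells were compared with HR- luminal cells of the same library. Because the same contrast chose the cells, these values are a description and were not tested. The UMIs of all cells of a class were added up within each library. A gene was called in a library where its CPM differed at least 2-fold with separate intervals and reached 20 CPM in either class, and 6861 genes reached that level in at least 1 library. Without Areg and Krt14, 670 genes (9.77%) were higher in HR+ cells and 473 (6.89%) were lower in all 4 libraries. When 4 receptor and factor genes chose the cells in place of Areg, 456 were higher and 199 lower. A minimum of 5 CPM gave 1058 and 776. In single libraries 15.6, 15.4, 16.2 and 16.4% of genes were higher and 9.41, 9.88, 11 and 10.5% were lower. A gene that reaches the minimum through 1 class alone has to differ between the classes, so counts of list members below are descriptions. The split depends on the scaling: calls were higher in 58.6% of cases with totals, and in 42.5% with TMM scaling (461 higher, 624 lower), a scaling that moved the median log2 ratio of all genes by -0.25, from 0.23 to -0.02. Among the list members and other named genes, Greb1, Erbb3, Stat5a, Plk2 and Cldn7 were no longer called higher with TMM scaling, while Egfr, Cd14, Itga6 and Egr1 were then called lower.

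The receptors that name the class were higher in HR+ cells. In GRCm38, Prlr lies on chromosome 15 from 10177238 to 10349180 and Pgr on chromosome 9 from 8899833 to 8968611, both on the plus strand. Foxa1 lies on chromosome 12 from 57540628 to 57546916 on the minus strand, and Esr1 on chromosome 10 from 4611593 to 5005614 on the plus strand. Areg itself, which the rule used, stood at 3453, 2945, 4048 and 2634 CPM in HR+ cells and 9.59, 6.47, 4.29 and 4.93 CPM in HR- luminal cells. Prlr reached 976, 1072, 1359.9 and 1176 CPM against 88.3, 83.6, 86.4 and 90.3 CPM, a ratio of 11.1, 12.8, 15.7 and 13.0. The intervals of the summed levels were separate in each library, though single cells overlapped: 15.7, 17.0, 15.9 and 25% of HR+ cells had no Prlr UMI. Pgr was at 145, 65.2, 145 and 113 CPM in HR+ cells and 2.05, 1.63, 2.56 and 2.42 CPM in HR- luminal cells. The lowest HR+ value, in wild-type HU (57.3 to 73.9 CPM), was still far above every HR- value. Foxa1 was at 135, 111, 128 and 134 CPM against 4.91, 3.02, 3.30 and 2.83 CPM and varied least among the HR+ markers across libraries. Esr1 was sparse, at 27.7, 18.1, 26.7 and 37.4 CPM against 1.23, 1.01, 1.18 and 1.10 CPM. Its log2 ratio was 3.25 to 4.19, but in wild-type HU neither class reached 20 CPM, so it was not counted as higher in all 4. Thinning to 5000 UMIs, here and below, left out cells with less than 5000 UMIs. This kept 146, 135, 104 and 90 HR+ cells and 4002, 3291, 3272 and 2516 HR- luminal cells. After thinning, a Pgr UMI was found in 48.6, 25.2, 47.1 and 41.1% of these HR+ cells and 0.900, 0.912, 1.28 and 1.11% of these HR- luminal cells. A Prlr UMI was found in 79.5, 77.8, 83.7 and 84.4% and 31.9, 30.8, 31.9 and 32.4%. These shares follow each gene's level and are not compared between the genes. They were higher in HR+ cells for both. Before thinning, 70.4, 60.3, 63.7 and 63.4% of all HR+ cells, those under 5000 UMIs included, held a Pgr UMI.

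**Figure D2:**
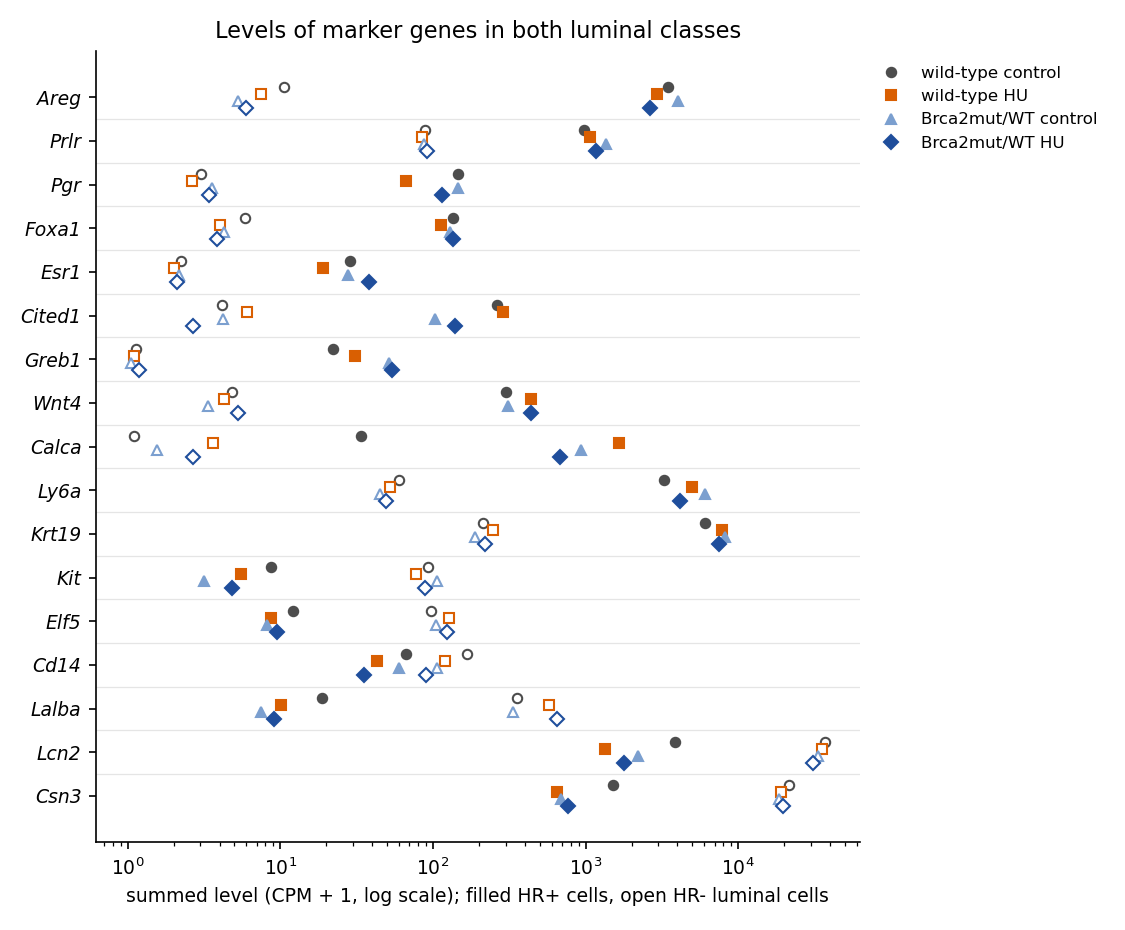
Levels of 17 marker genes (rows) in HR+ cells (filled points) and HR- luminal cells (open points) of each library, as CPM plus 1 on a log axis (x). Prlr lies between 976 and 1360 CPM in HR+ cells and between 83.6 and 90.3 CPM in HR- luminal cells, while Lalba lies at 17.7 CPM or less in HR+ cells.

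Of 11 hormone receptors and cofactors, 10 could be compared, of which 3 were higher (Pgr, Prlr and, not with TMM scaling, Greb1) and 1 lower, with a median log2 ratio of 0.89 against 0.23 over all genes. Greb1, an early target of the estrogen receptor, was at 21.3, 29.8, 50.6 and 53.2 CPM in HR+ cells and 0.137, 0.106, 0.0466 and 0.185 CPM in HR- luminal cells. Its HR+ level was higher in both Brca2mut/WT libraries than in both wild-type ones. The lower gene was Nr3c1, the glucocorticoid receptor, at 23.6, 22.3, 24.6 and 17.3 CPM against 52.2, 47.8, 51.8 and 53.3 CPM. Esr2, the other estrogen receptor gene, had at most 1 UMI in the HR+ cells of a library.

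Transcription factors lay on both sides. Of 11 compared among 12, 3 were higher in HR+ cells (Foxa1, Cited1 and Tbx3) and 5 lower (Xbp1, Elf5, Ehf, Hey1 and Foxi1). Tbx3, a T-box repressor needed for mammary development, was at 141, 119.7, 192 and 129 CPM against 15.1, 9.26, 29.3 and 18.0 CPM. Elf5, the master factor of alveolar cells, was at 11.02, 7.71, 7.23 and 8.47 CPM against 96.0, 126, 104 and 122 CPM. Xbp1, which drives secretory capacity, was at 104, 72.1, 95.4 and 81.3 CPM against 455, 385, 479 and 521 CPM. These ratios kept their direction in every library. Gata3, a factor of all luminal cells, was at 295, 225, 429.8 and 271 CPM in HR+ cells and 129, 118, 133 and 121 CPM in HR- luminal cells and was past 2-fold in some libraries only. Myb reached 40.0, 42.8, 17.7 and 21.2 CPM against 1.498, 2.59, 1.22 and 1.32 CPM and was under 20 CPM in Brca2mut/WT control. Spdef, a factor of secretory lineages, stayed under 20 CPM in all libraries.

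Of 9 paracrine ligands beside Areg, 4 reached the minimum level (Wnt4, Wnt5a, Calca and Ptn), 3 of them in HR+ cells alone, and all 4 were higher in HR+ cells. Wnt4, the Wnt ligand induced by progesterone, was at 299, 438, 309.8 and 436 CPM against 3.84, 3.30, 2.36 and 4.31 CPM. It was higher in both HU libraries than in both control libraries. Wnt5a, a ligand of the non-canonical Wnt pathway, was at 302, 153, 257 and 153 CPM against 21.5, 15.5, 19.8 and 17.5 CPM and was lower in both HU libraries. Calca, which encodes calcitonin and the peptide CGRP, was at 32.8, 1651, 927 and 683 CPM against 0.0979, 2.63, 0.559 and 1.69 CPM. Wild-type control was thus more than 20 times below each other library. Ptn (pleiotrophin) was at 226, 266, 125 and 283 CPM against 6.25, 12.0, 4.19 and 5.95 CPM, but the 5 leading cells gave 70.4, 55, 95.4 and 96.5% of its HR+ UMIs. Tnfsf11, the RANK ligand that acts downstream of progesterone, was at 0.256, 1.86, 6.51 and 13.1 CPM and below the minimum level. Its 5 leading cells held 100, 100, 100 and 76.5% of its UMIs. Ihh had no UMI in HR+ cells, and Igf1, Igf2 and Fgf1 did not reach 20 CPM in any library.

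The EGF family around Areg was unequal. Of 9 ligands and receptors compared among 12, 2 were higher (Btc and Erbb3, the latter not with TMM scaling) and 1 lower (Nrg1). Btc (betacellulin) was at 59.0, 60.6, 75.9 and 43.5 CPM in HR+ cells and 1.97, 2.53, 2.87 and 3.29 CPM in HR- luminal cells. Ereg (epiregulin), another ligand of the family, was at 31.3, 14.6, 14.5 and 10.0 CPM against 0.411, 0.565, 0.175 and 0.342 CPM, and past 20 CPM only in wild-type control. Egfr, the receptor that amphiregulin binds, was at 3.85, 2.93, 4.34 and 0.770 CPM in HR+ cells and 21.1, 18.2, 18.5 and 20.3 CPM in HR- luminal cells. HR+ cells, chosen for the ligand, thus held less of the receptor than HR- luminal cells in each library, and Egfr was not counted as lower in all 4 only because 2 libraries stayed under the 20 CPM minimum in both classes. Erbb3 was at 71.3, 64.9, 66.2 and 67.0 CPM against 31.1, 27.9, 30.6 and 29.6 CPM. Adam17, the protease that sheds amphiregulin from the membrane, was at 26.7, 27.1, 27.1 and 24.7 CPM against 25.5, 23.6, 25.4 and 25.1 CPM, a difference well within 1.5-fold in each library. Erbb4 had no UMI in HR+ cells.

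Along the prolactin pathway, 4 of 6 genes compared (of 8) were higher in HR+ cells (Prlr, Jak2, Socs3 and, not with TMM scaling, Stat5a) and 1 lower (Socs2), with a median log2 ratio of 1.57. Jak2, the kinase that sits on the receptor, was at 93.6, 94.96, 141 and 125 CPM against 31.7, 27.5, 34.0 and 31.6 CPM. Stat5a, the factor it activates, was at 49.5, 54.0, 71.9 and 97.4 CPM against 23.96, 24.6, 27.8 and 26.1 CPM. The HR+ value of Stat5a was highest in Brca2mut/WT HU. Of the feedback inhibitors, Socs3 was at 41.0, 32.2, 74.5 and 41.2 CPM against 12.4, 10.4, 11.2 and 12.8 CPM and Socs2 at 27.7, 35.6, 39.0 and 29.3 CPM against 157, 128, 192 and 169.9 CPM, so they lay on opposite sides.

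At the surface, 3 of 8 markers compared (of 10) were higher (Ly6a, Cd24a and Ly6d) and 1 lower (Kit). Ly6a (Sca1), used to sort HR+ cells by flow cytometry, was at 3272, 4970.1, 6038 and 4143 CPM against 59.2, 51.6, 43.9 and 48.1 CPM. Kit, the receptor that marks luminal progenitors, was at 7.69, 4.52, 2.17 and 3.85 CPM against 91.9, 76.4, 105 and 87.4 CPM. Prom1 (CD133), another sorting marker of HR+ cells, was at 25.6, 15.2, 14.1 and 5.39 CPM against 8.66, 3.92, 8.25 and 6.35 CPM and did not separate the classes in Brca2mut/WT HU. Epcam was at 2124, 1958, 2245.5 and 1780.3 CPM against 1789, 1538, 1788 and 1558 CPM and differed by less than 1.5-fold.

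HR+ cells were rich in luminal keratins: Krt7, Krt8 and Krt19 of 4 were higher, and Krt18 was not past 2-fold in all libraries. Krt19 was at 6068, 7797, 8139 and 7432 CPM against 212, 245, 189 and 218 CPM and Krt7 at 1453, 1489, 1444 and 1259 CPM against 97.1, 102, 76.1 and 84.9 CPM. Of 5 tight junction genes compared among 7, Cldn4 and, not with TMM scaling, Cldn7 were higher, Cldn4 at 279, 436, 443 and 386 CPM against 7.17, 7.68, 3.88 and 4.51 CPM. Of 4 basal markers compared among 11, none was higher in all 4 libraries and Acta2 (smooth muscle actin) was lower, at 7.69, 8.51, 4.34 and 4.62 CPM against 41.5, 50.6, 48.3 and 74.8 CPM. Krt17, a basal keratin that is also induced by stress, was at 5.64, 18.4, 34.3 and 25.8 CPM against 6.15, 8.50, 4.81 and 6.58 CPM, with the wild-type control value alone below that of HR- luminal cells.

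Most HR- luminal markers were lower in HR+ cells. Of 9 compared among 12, 7 were lower (Lalba, Mfge8, Elf5, Kit, Csn3, Trf and Aqp5) and none higher, with a median log2 ratio of -3.56. Lalba (alpha-lactalbumin) was at 17.7, 9.04, 6.51 and 8.09 CPM against 352, 576, 334 and 648 CPM. Csn3 (kappa-casein) was at 1503, 650.4, 687 and 767 CPM against 21657, 19023, 18407 and 19675 CPM. Aldh1a3 went the other way without passing the limit in all 4, at 33.1, 38.8, 84.6 and 28.1 CPM against 28.7, 31.3, 22.5 and 18.0 CPM. Lcn2 (lipocalin 2), chosen after its values were seen because it is abundant in HR- luminal cells, was at 3837, 1339, 2215 and 1773 CPM in HR+ cells and 36986, 35385, 33533.5 and 30854 CPM in HR- luminal cells. The HR+ level came to 10.4, 3.78, 6.60 and 5.75% of the HR- level. No doublet caller was run, and how much of such levels came from free RNA or from 2 cells in a droplet was not tested.

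**Figure D3:**
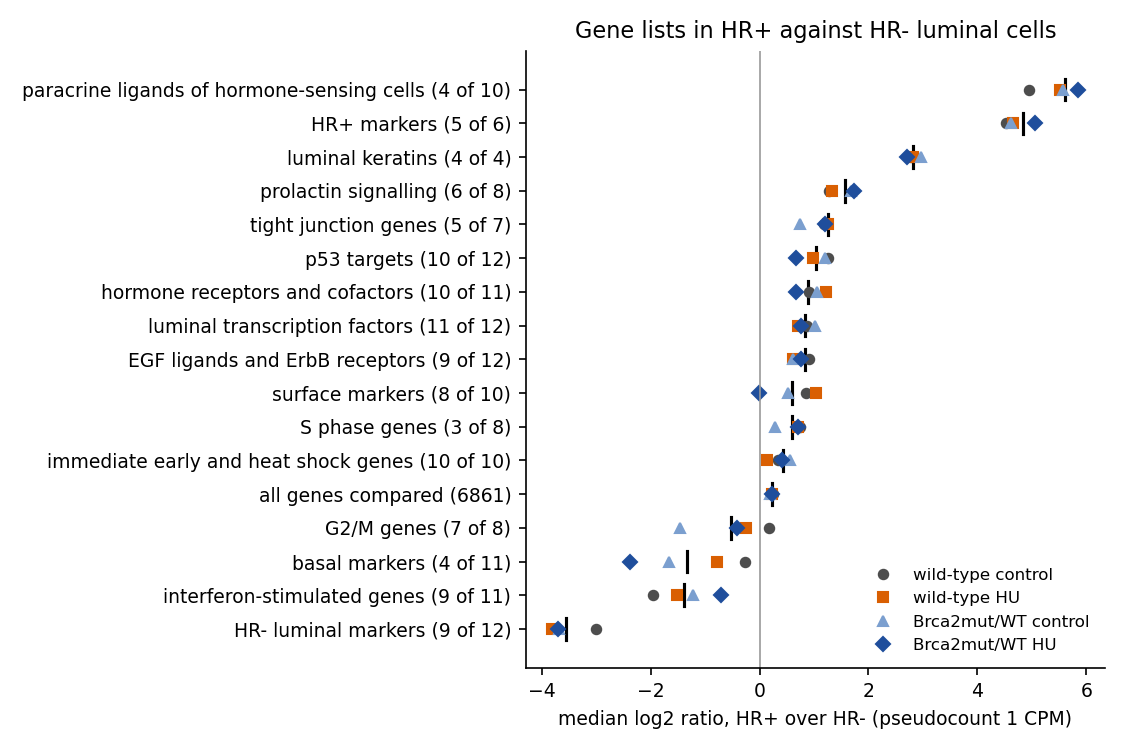
Log2 ratio of HR+ to HR- luminal cells (x axis, with 1 CPM added) as the median over the compared genes of each gene list with at least 3 of them (rows). Each point is 1 library and the bar is the median of the genes' means over the libraries. The paracrine ligands lie farthest to the right, at a median of 5.6, and the HR- luminal markers farthest to the left, at -3.56. Most of the compared ligands reached the minimum level in HR+ cells alone, so a high ratio was built into their median.

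Over all genes, the 15 genes with the largest ratio in their weakest library were Sprr2a3, Pcp4, Plac8, Sprr1a, Dcn, Ly6c1, Stmn2, Defb1, Crym, Il33, Fam25c, Wnt4, Fn1, Ido1 and Itih2. Sprr1a, whose upstream bases are printed above, was at 2097, 1260.3, 3378 and 836 CPM against 16.1, 4.13, 6.27 and 5.25 CPM. Pcp4, a calmodulin-binding peptide, was at 788, 645, 574 and 1017 CPM against 3.62, 1.32, 1.39 and 2.81 CPM. Defb1 (beta-defensin 1) was at 312, 835, 578 and 979 CPM against 2.75, 3.55, 2.796 and 5.58 CPM and was higher in both HU libraries. Stmn2, a stathmin that binds tubulin, was at 1161, 1632, 2525 and 1469.8 CPM against 12.1, 6.41, 10.1 and 5.10 CPM. Il33, an alarmin cytokine, was at 569, 418, 360.4 and 453 CPM against 7.42, 5.44, 2.41 and 3.37 CPM. Sprr2a3 belongs to a family of near-identical genes, so its share of reads is uncertain. S100a6, a calcium-binding protein chosen after its values were seen, was at 12597, 15549, 12364 and 15101 CPM against 364, 319, 229 and 247 CPM. Among the 10 genes with the smallest ratio were Ecrg4, Rbp7, Col9a1, Apod, Lalba, Scgb2b27, Akap12, Csn1s1 and Sfrp1. Rbp7, a retinol-binding protein, was at 51.0, 39.6, 26.7 and 20.8 CPM against 1162, 1426, 1017 and 804 CPM. Ecrg4, a secreted peptide precursor, was at 16.9, 7.98, 1.45 and 8.86 CPM against 418, 478, 376 and 481 CPM. The genes whose levels over both classes and all libraries followed Areg most closely by Pearson correlation of log2 CPM (8 values) were Rbms1, Basp1, Uqcc2, Fam25c and S100a14. These values fall into 2 groups, the classes, so no coefficient is given.

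Of 10 p53 targets compared among 12, 3 were higher in HR+ cells (Phlda3, Aen and, not with TMM scaling, Plk2), with a median log2 ratio of 1.04. Cdkn1a, the p53-induced cell cycle inhibitor, was at 440.0, 481, 509.7 and 405 CPM against 166, 258, 245 and 263 CPM and past 2-fold in some libraries only. Of 10 immediate early and heat shock genes, Atf3 alone was higher, at 148, 211, 191 and 149 CPM against 23.2, 15.1, 18.8 and 12.9 CPM. Of 9 interferon-stimulated genes compared among 11, 4 were lower (Irf7, Ifi44, Iigp1 and Bst2), with a median of -1.39. Irf7, the transcription factor that amplifies the interferon response, was at 99.5, 97.4, 128 and 148 CPM against 591, 632, 691 and 697 CPM. None of the 7 G2/M genes (of 8) or of the 3 S phase genes (of 8) that could be compared passed in either direction. Top2a, which untangles DNA in G2 and mitosis, was at 19.998, 14.6, 8.68 and 15.8 CPM against 25.6, 22.3, 24.3 and 14.7 CPM. Brca2 was at 3.59, 3.19, 1.08 and 2.31 CPM in HR+ cells, and none of the 8 DNA repair genes reached 20 CPM.

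Levels differed between single HR+ cells. Areg, whose lower end the rule fixed, had medians of 2325, 2436, 3125 and 1483 CPM and highest values of 14026, 11122.5, 18669.5 and 9964 CPM per cell. Calca was absent from 89.9, 46.8, 52.2 and 50% of HR+ cells, and the 10% with the most held at least 5.82, 3032, 2444 and 1997 CPM. Cited1 had no UMI in 50.3, 52.5, 69.0 and 64.3% of cells, and Stmn2 none in 44.0, 51.8, 28.3 and 49.1%. The 10% of cells with the most Stmn2 held at least 4082, 4869.9, 5825 and 3867 CPM, and in Brca2mut/WT control its median cell held 1741 CPM. Slpi, a secreted protease inhibitor, ranged from no UMI in 31.4, 39.7, 54.9 and 66.1% of cells to 44088, 9372, 13412 and 5254 CPM in the highest cell. A cell at 0 may hold the RNA below detection.

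**Figure D4:**
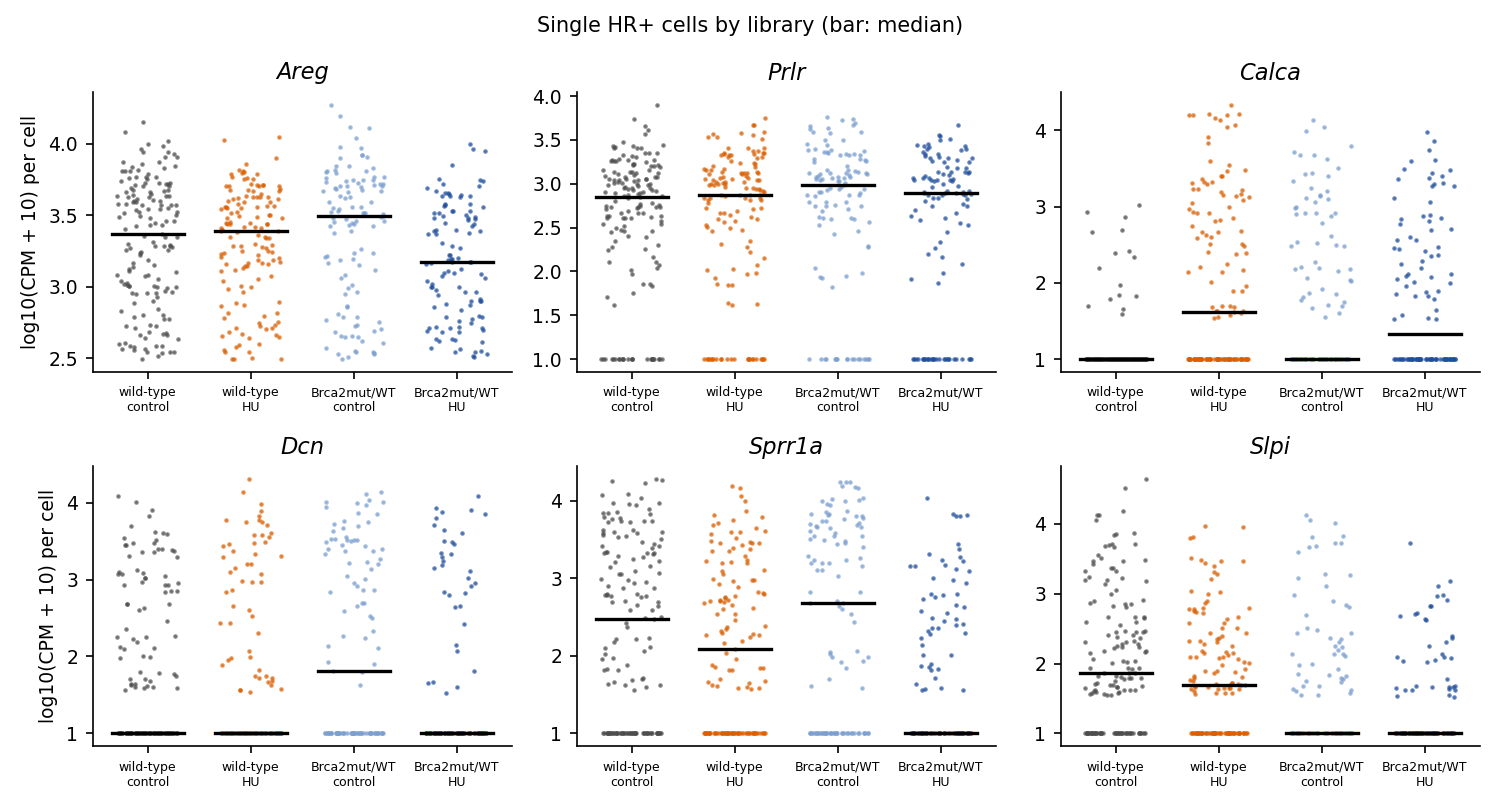
Single HR+ cells by library for Areg, Prlr, Calca, Dcn, Sprr1a and Slpi, as log10 of CPM plus 10 (y axis), with 1 point per cell and a bar at the median. Areg is above 300 CPM in all cells by the rule, while Calca, Dcn and Slpi show a group of cells at 0 and a group spread over several powers of 10.

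Part of this variation followed the antibody tags, seen in pools with at least 10 HR+ cells and named after the values were seen. HR+ cells of pool 1 (19, 10 and 12 cells in the 2 wild-type libraries and Brca2mut/WT control) had no Greb1 UMI, which allows 6.18, 14.6 and 10.5 CPM, while pool 4 held 25.7, 3.42, 60.6 and 66.8 CPM in the 4 libraries. In wild-type HU the depth thus does not separate the pools for Greb1. Calca had 0, 0 and 1 UMI in pool 1 and 44.3, 699, 1134 and 812 CPM in pool 4. Pcp4 was at 24.7, 34.1 and 3.50 CPM in pool 1 and 599, 648, 683 and 1093 CPM in pool 4. Pool 1 cells still held the class markers, with 163, 68.3 and 245 CPM of Foxa1 and 103, 53.6 and 161 CPM of Pgr. They held 4705, 1389.7 and 2489.8 CPM of Slpi and 6409.9, 4286 and 6450.4 CPM of Lcn2, against 772, 667 and 465 and 2836, 1139 and 1559.6 CPM in pool 4 of the same libraries. Both were higher in pool 1 in each of the 3 libraries. Dcn was at 2042 and 1699.8 CPM in pool 2 of the wild-type libraries and at 281 and 5.13 CPM in their pool 4, but at 2134 and 1168 CPM in pool 4 of the Brca2mut/WT libraries. In the wild type its level therefore differed more between pools of 1 library than between the 2 libraries.

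Next, the HR+ cells of treated and untreated organoids were set side by side. A gene was called where its CPM differed at least 1.5-fold with separate intervals, and 20 CPM in either library, and calls were joined over the 2 genotypes, whose libraries are not shared. In HR+ cells 19 of 5771 genes (0.329%) were higher with HU in both genotypes and 60 (1.04%) were lower, and 36 (0.624%) were called in opposite directions. In HR- luminal cells, which were many more, 6 (0.113%) and 11 (0.207%) of 5304 genes were called. Within single genotypes, 3.17% of genes were higher and 4.58% lower in the wild type, and 2.72% were higher and 3.54% lower in Brca2mut/WT. In HR- luminal cells these shares were 0.522 and 0.671% in the wild type and 0.311 and 0.696% in Brca2mut/WT. These are differences between single libraries with no replicate check. Without pool 4, 8 of the 19 and 13 of the 60 genes remained called in HR+ cells, and with every cell thinned to 5000 UMIs 4 and 21 did. When 4 receptor and factor genes chose the cells in place of Areg, 10 of the 19 and 21 of the 60 were called.

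The 60 genes lower with HU in HR+ cells were led by Slpi, Adm, Fgfbp1, Pgf, Lbp and Ankrd37. Others of the 60 named here were chosen after their values were seen. No list of low-oxygen or glycolysis genes was set beforehand, so how many such genes were not called was not counted. Adm (adrenomedullin, a vasodilator peptide) was at 46.4, 15.2, 47.0 and 15.8 CPM in HR+ cells. Both HU libraries lay below both controls. In HR- luminal cells it was at 22.3, 10.6, 24.7 and 9.37 CPM, also lower with HU. Ankrd37, an ankyrin repeat protein gene induced at low oxygen, was at 79.0, 29.5, 103 and 35.4 CPM, and within pool 4 at 72.5, 12.0, 115 and 30.0 CPM. Vegfa, the vascular endothelial growth factor, was at 144, 76.6, 159 and 85.5 CPM in HR+ cells and 103, 62.1, 117 and 61.7 CPM in HR- luminal cells. The control and HU libraries did not overlap in either class for Adm, Ankrd37 or Vegfa. Ero1l, an oxidase of the endoplasmic reticulum, was at 372, 158, 337 and 151 CPM in HR+ cells. Hk2 (hexokinase 2), the first enzyme of glycolysis, was at 87.9, 44.2, 75.9 and 37.4 CPM. Pfkfb3, which sets the level of a glycolytic activator, was at 44.6, 20.5, 42.3 and 25.4 CPM. Each was lower in both HU libraries. Egln3, an oxygen-dependent prolyl hydroxylase, was at 79.2, 41.8, 72.3 and 40.4 CPM in HR+ cells and 337, 259, 417 and 280.1 CPM in HR- luminal cells. Car9, a carbonic anhydrase of the cell surface, was at 151, 53.7, 80.6 and 43.9 CPM against 237, 192, 258 and 186 CPM. Hif1a, a subunit of the transcription factor that responds to low oxygen, was at 125, 141, 144 and 129 CPM in HR+ cells and was not called. Of the 60 genes, 5 were called in HR- luminal cells too (Adm, Vegfa, Ero1l, Ndufa4l2 and Hk2), which is 8.33% of the HR+ list and 45.5% of the HR- list. None of the 19 genes higher with HU was called there. Over all genes, 0.207% were called lower and 0.113% higher in HR- luminal cells. In both HR- contrasts, 43 of the 60 and 11 of the 19 had the same sign as in HR+ cells. Both classes come from the same libraries, and the same-sign share over all genes was not counted. These tallies were not tested and are no result about the genes. Some of the 60 differed the other way in HR- luminal cells. Arrdc3, a regulator of receptor trafficking, was at 29.0, 12.2, 33.3 and 9.24 CPM in HR+ cells and 17.4, 28.6, 17.9 and 33.3 CPM in HR- luminal cells, where it was called higher with HU.

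Fgfbp1, a carrier that releases fibroblast growth factors, was at 136, 47.9, 230.3 and 39.3 CPM in HR+ cells and 3.44, 2.67, 2.27 and 2.05 CPM in HR- luminal cells. Within pool 4 it was at 97.5, 71.8, 237 and 33.4 CPM. Pgf (placental growth factor) was at 148, 22.3, 91.1 and 32.4 CPM in HR+ cells, and within pool 4 at 195, 15.4, 89.99 and 8.07 CPM. Its level in HR- luminal cells was 339, 263, 367 and 247 CPM. Slpi was at 1495, 469, 772 and 170.2 CPM in HR+ cells and 137, 194, 95.4 and 93.4 CPM in HR- luminal cells, where it was higher with HU in the wild type. In HR+ cells the 5 leading cells gave 50.8, 51.0, 56.9 and 73.3% of its UMIs. Without those cells it was at 763, 239.9, 353 and 48.3 CPM. Within pool 4 it was at 772, 667, 465 and 70.3 CPM. Lbp, which binds bacterial lipopolysaccharide, was at 149, 53.5, 133 and 36.2 CPM. Inhba, the activin subunit, was at 276, 130.3, 229 and 121 CPM in HR+ cells and 4.24, 1.47, 2.14 and 1.20 CPM in HR- luminal cells. Lif, a cytokine of the interleukin 6 family, was at 25.4, 9.58, 24.2 and 10.0 CPM in HR+ cells and 3.15, 5.82, 3.23 and 3.69 CPM in HR- luminal cells, not lower with HU there. Wnt5a, whose levels are given above, and the transcription factor gene Sox9, at 213, 128, 234 and 134 CPM, were among the 60 genes too. HR- luminal markers also differed in HR+ cells. Of 6 compared, 5 were lower with HU in the wild type and 2 in Brca2mut/WT, against 4.58 and 3.54% of all genes. Their median log2 ratios were -0.71 and -0.29 in HR+ cells and -0.17 and -0.19 in HR- luminal cells. How far this bears on the 60 genes was not tested.

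The 19 genes higher with HU were led by Scgb1a1, Gpx2, Sprr2f, Ly6k, Ifit3 and Aldh3a1, and several rested on a few cells. Scgb1a1 (a secretoglobin) was at 12.6, 67.3, 8.68 and 57.8 CPM, with 91.8, 98.4, 100 and 97.3% of its UMIs in the 5 leading cells. Sprr2f was at 39.7, 225, 92.2 and 281 CPM, with 99.4, 99.4, 98.4 and 100% in 5 cells. With each gene's 5 leading cells left out, 8 of the 19 remained called (Acot1, Aldh3a1, Defb1, Hsdl2, Ly6k, Mrpl4, Tsc22d3 and Tshz2), against 46 of the 60 lower genes. Aldh3a1, an aldehyde dehydrogenase, was at 55.6, 101, 116 and 236 CPM, and at 22.4, 42.0, 39.6 and 90.4 CPM without the 5 cells. Acot1, an acyl-CoA thioesterase, was at 35.4, 63.8, 28.2 and 78.6 CPM. Tsc22d3 (GILZ), a glucocorticoid-induced regulator, was at 80.5, 123, 65.4 and 184 CPM. Defb1 was at 329, 959, 664 and 1101 CPM within pool 4.

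**Figure D5:**
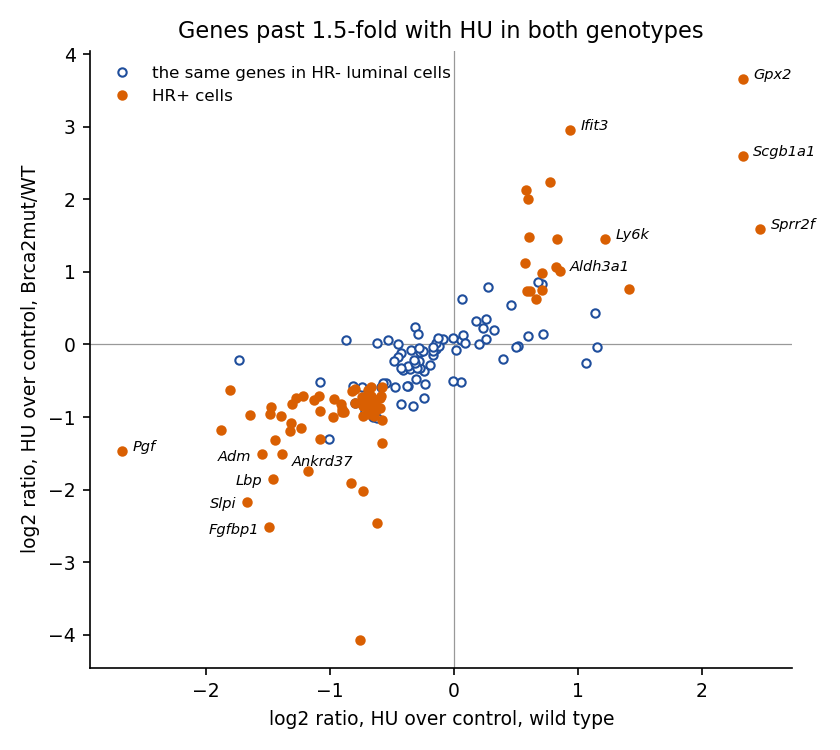
Genes past 1.5-fold with HU in HR+ cells of both genotypes, as log2 ratio of HU to control in the wild type (x axis) and in Brca2mut/WT (y axis), with the same genes in HR- luminal cells as open points. By the joining rule the HR+ points lie in the upper right (19 genes) and lower left (60 genes), and the open points lie nearer to the origin for all but 1 of the 79 genes (Id3). The genes were chosen by their difference in HR+ cells, which favours this placing, so it is no comparison of the classes.

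Among the HR+ markers, Pgr was lower with HU in the wild type, with 145 CPM (interval 134 to 158) and 65.2 CPM (interval 57.3 to 73.9), and in Brca2mut/WT it was at 145 and 113 CPM, within 1.5-fold. Within pool 4 Pgr was at 164, 47.9, 151 and 126 CPM. Prlr differed by less than 1.5-fold between any HU library and its control. Of 4 paracrine ligands 1 was higher with HU (Calca) and 1 lower (Wnt5a) in the wild type, and 1 was higher (Ptn) and 1 lower (Wnt5a) in Brca2mut/WT. Calca within pool 2 of the wild type was at 33.3 and 2172 CPM and within pool 4 at 44.3 and 699 CPM without and with HU. Of 9 interferon-stimulated genes, 3 were higher with HU in the wild type and 6 in Brca2mut/WT, against 3.17 and 2.72% of all genes. Their median log2 ratios were 0.26 and 0.83 in HR+ cells and -0.01 and 0.01 in HR- luminal cells. Ifit3, an interferon-induced gene, was at 15.6, 30.9, 25.3 and 203 CPM in HR+ cells, and the 5 leading cells held 29.5, 81.0, 35.7 and 82.5% of it. Without them it was at 11.3, 6.12, 16.6 and 37.5 CPM, so most of the Brca2mut/WT HU level came from 5 of 112 cells. Without each gene's leading cells, none of these 9 genes was among the 8 of the 19 that remained called with HU. Of the p53 targets, 1 of 10 was higher with HU in the wild type, none of 9 was higher in Brca2mut/WT, and none was lower in either.

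Between genotypes, calls were joined over control and HU. In HR+ cells 24 of 5748 genes (0.418%) were higher in Brca2mut/WT in both treatments and 29 (0.505%) were lower, with 31 (0.539%) called in opposite directions, against 17 (0.323%) and 8 (0.152%) of 5268 genes in HR- luminal cells. None of the 24 was called in HR- luminal cells, where few genes were called at all, and 3 of the 29 were (10.3% of the HR+ list, 37.5% of the HR- list). In both HR- contrasts, 14 of the 24 and 16 of the 29 had the same sign as in HR+ cells. Both classes come from the same libraries, and the same-sign share over all genes was not counted here either. Whether the classes differ was not tested. Without pool 4 only 4 of the 24 and 2 of the 29 genes remained called in HR+ cells, and with every cell thinned to 5000 UMIs 2 and 8 did. Other alternatives gave longer lists. Without pool 2, 102 genes were higher (21 of the 24) and 67 lower (23 of the 29). When 4 receptor and factor genes chose the cells in place of Areg, 65 were higher (14 of the 24) and 21 lower (12 of the 29). In the comparison of single treatments 3.22% of genes were higher and 2.55% lower without HU, and 3.11% were higher and 2.35% lower with HU. In HR- luminal cells these shares were 0.592 and 0.352% without HU and 0.501 and 0.427% with HU.

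The genes higher in Brca2mut/WT HR+ cells were led by Cryba4, Gmpr, Igsf5, Aldh3a1, Gbp7 and Ifi202b. Cryba4, a beta-crystallin gene, was at 24.4, 48.1, 212 and 139 CPM in HR+ cells and 0.656, 1.18, 1.09 and 1.51 CPM in HR- luminal cells. Within pool 4 it was at 28.2, 58.1, 256 and 173 CPM. Greb1, also among the 24, was at 25.7, 3.42, 60.6 and 66.8 CPM within pool 4. Of the interferon-stimulated genes, 4 of 9 were higher in Brca2mut/WT without HU and 8 of 9 with HU, against 3.22 and 3.11% of all genes. Their median log2 ratios were 0.66 and 1.31 in HR+ cells and 0.33 and 0.30 in HR- luminal cells. Isg15, a ubiquitin-like protein, was at 202, 243, 339 and 605 CPM in HR+ cells and 567, 699, 749 and 771 CPM in HR- luminal cells, the class with the higher level in each library. Without its 5 leading cells it was at 182, 192, 262 and 400.1 CPM in HR+ cells, still in the same order. Rsad2 (viperin) was at 23.3, 35.4, 43.7 and 195 CPM, and at 12.9, 14.6, 25.9 and 45.2 CPM without its leading cells. With each gene's 5 leading cells left out, 10 of the 24 remained called. Iigp1 and Rsad2 were among them, but Isg15 and Ifit1 were not. The counts of 4 and 8 of 9 and the medians above include the leading cells.

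The genes lower in Brca2mut/WT HR+ cells were led by Clca1, Krt5, Krt15, Ndufa4l2, Cdc20 and Amotl1. Krt15, a keratin of basal and progenitor cells, was at 282, 413, 87.1 and 51.2 CPM in HR+ cells and 4.72, 11.9, 4.37 and 6.45 CPM in HR- luminal cells. The 5 leading cells held 76.1, 60.0, 79.7 and 88.7% of it, and it was at 70.1, 171, 18.6 and 6.15 CPM without them. Pool 4 held 506, 1344, 43.0 and 46.1 CPM, but pool 1 of Brca2mut/WT control held 501 CPM against 299 CPM in pool 1 of wild-type control. The order of the genotypes in Krt15 was therefore not the same in every pool. Cited1 was at 263, 289, 103 and 139 CPM, with pool 4 at 253, 357, 60.6 and 128 CPM. Pool 1 of wild-type control and Brca2mut/WT control held 618 and 483 CPM of Cited1. Krt5, a basal keratin, was at 43.1, 37.0, 12.7 and 8.86 CPM in HR+ cells and 34.0, 29.4, 14.0 and 19.0 CPM in HR- luminal cells. Cdc20, an activator of the mitotic ubiquitin ligase, was at 22.8, 20.7, 3.98 and 7.70 CPM, with 71.9, 87.2, 72.7 and 70% of its UMIs in 5 cells. The 8 G2/M genes summed to 207, 151, 68.0 and 114 CPM in HR+ cells and 184, 178, 224 and 153 CPM in HR- luminal cells. With each gene's 5 leading cells left out, 19 of the 29 remained called.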

How the data were processed

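Single cells of 4 organoid libraries were captured in droplets, and the authors deposited 1 matrix of UMI counts per library, made with Cell Ranger (version 6.0.2 in the submitters' notes, 6.1.1 in a file header) on mm10, with 32285 genes and 4 antibody tags. The notes also name Seurat 4.0 and R 4.1.3, whose filtered or clustered cells were not used here. From the deposited counts, CPM per cell was computed over genes alone, cells were chosen by the Areg and Krt14 rule, and UMIs were summed per class and library. Log2 ratios had 1 CPM added. Gene positions came from GENCODE M21 and start sites from RefSeq. Python 3.11.15, numpy 2.4.6, scipy 1.17.1, pandas 2.3.3, matplotlib 3.10.9 and edgeR 4.0.16 in R 4.3.3 (TMM factors only) were used. The calling script was tested on simulated data.

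The members and gene lists were chosen with earlier results of these data known. Named genes are the list members, the 15 highest and 10 lowest HR+ to HR- ratios, the 6 leading genes of each joined condition call, Brca2, and genes said to be chosen after their values were seen. A few genes that this rule names are not reported here. Alternatives changed the Areg limit, quality limits, tags, marker rule, depth, scaling, minimum level and pseudocount. Leaving out cells under 5000 UMIs and each gene's 5 leading cells was added after seeing the data.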

Additional observations from a re-analysis of the deposited data

Results flagged for a closer look

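Of the genes named in the report, 4 were called in opposite directions with HU in the HR+ cells of the 2 genotypes. The difference between the genotypes was not tested, since each condition is 1 library. The log2 ratio of HU to control was 0.80 in the wild type and -0.78 in Brca2mut/WT for Dcn. Pool 2, where wild-type Dcn was highest, gave 25.8% of HR+ cells in wild-type control and 63.8% in wild-type HU. The HR+ cells of that pool held 2042 and 1699.8 CPM of Dcn, which is not a matched comparison. For Ido1, a tryptophan-degrading enzyme, the ratios were 1.93 and -0.59, and the 5 leading cells gave 89.0, 63.8, 58.1 and 60.3% of its UMIs. For Ly6c1, a surface protein of the Ly6 family, they were 1.26 and -0.69, with 372, 633, 1249 and 785 CPM within pool 4. For Cryba4 they were 0.95 and -0.60, with 28.2, 58.1, 256 and 173 CPM within pool 4.

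Cells with more than 6000 genes, which the quality limits remove, held a further 608 cells that met the Areg and Krt14 rule, more than the 525 HR+ cells themselves. They numbered 177, 167, 115 and 149, or 8.43, 9.36, 6.34 and 6.73% of the cells over 6000 genes. Their median depth was 62281, 66858, 61053 and 59333 UMIs, and 26.6, 22.8, 13.0 and 7.38% carried 2 or more tags. Prlr stood at 721, 706, 938 and 859.5 CPM and Krt19 at 4417, 4757, 6046 and 5484 CPM in them, both lower than in HR+ cells within the limits in all 4 libraries. Lcn2 stood at 27.1, 19.8, 15.3 and 14.2% of its level in HR- luminal cells, against 10.4, 3.78, 6.60 and 5.75% in the HR+ cells described above. How many of these cells were 2 cells in a droplet was not tested.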

How the results depend on the processing

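Of 146 values computed under alternatives, 106 stayed within set limits, among them all with Areg at 500 CPM or more, with cells of 2 or more tags left out and with cells under 5000 UMIs left out. The limits were 1.5 times for a count of genes, the counting interval for a share and 1 SD over the libraries for a list median, so a count within them may hold other genes. The order of the HR+ shares, whose intervals overlapped, did not hold under every alternative. With cells over 6000 genes and up to 10% mitochondrial UMIs kept, the HR+ shares were 4.55, 4.83, 3.92 and 4.96%, 37 genes were lower with HU (24 of the 60), and 9 were higher (6 of the 24) and 17 lower (6 of the 29) in Brca2mut/WT. Genes higher with HU numbered 24, of which 6 were among the 19. With 2 of Pgr, Foxa1, Esr1 and Cited1 in place of Areg, 686 cells were chosen, 390 of them shared (74.3% of the Areg cells, 56.9% of the others). Their shares were 4.18, 3.73, 3.91 and 3.95%, with wild-type control highest and wild-type HU below its control. Of genes, 199 were lower than in HR- luminal cells, 34 were higher and 103 lower with HU, and 65 were higher and 21 lower in Brca2mut/WT. Of the genes reported, 10 of 19, 21 of 60, 14 of 24 and 12 of 29 were among these. With cells under 5000 UMIs left out the shares were 2.90, 3.07, 2.76 and 3.01%, with wild-type HU highest. A minimum of 5 CPM gave 1058 genes higher and 776 lower than in HR- luminal cells, and 33 higher with HU. With every cell thinned to 5000 UMIs, 9 genes were higher (4 of the 19) and 30 lower with HU (21 of the 60), and 3 were higher (2 of the 24) and 12 lower (8 of the 29) in Brca2mut/WT, so most of the genes reported between genotypes were no longer called. Without each gene's 5 leading HR+ cells, 10 genes were higher with HU and 10 in Brca2mut/WT. Against HR- luminal cells, which were not trimmed, 447 were higher and 610 lower, a shift in the direction that trimming HR+ cells alone gives.

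Leaving out 1 tag pool at a time, genes higher with HU numbered 21 to 31 and lower 38 to 67, and genes higher in Brca2mut/WT 21 to 102 and lower 21 to 67. Leaving out pool 4 gave the 31 and 38 with HU, and only 8 of the 19 and 13 of the 60 genes were the same. It gave 21 and 21 genes between genotypes, of which 4 of the 24 and 2 of the 29 were the same. Leaving out pool 2 gave the 102 and 67 between genotypes, with 21 of the 24 and 23 of the 29, and 9 of the 19 and 40 of the 60 genes with HU. Genes higher and lower than in HR- luminal cells numbered 532 to 631 and 403 to 467 without a pool, and 698 to 727 and 484 to 513 without a library. Without a library a call was needed in fewer libraries, so these counts could not fall. They are among the 106 values within limits all the same. With 5 CPM added, list medians were 3.96 for HR+ markers, 4.84 for paracrine ligands, 0.66 for EGF genes, -3.10 for HR- luminal markers and 7.25 for fibroblast markers. With TMM scaling they were 0.64 for hormone receptors, 0.58 for transcription factors, 0.60 for EGF genes, 1.32 for prolactin signalling, 2.56 for luminal keratins, 0.34 for S phase genes, 0.17 for immediate early genes and 1.0 for tight junction genes. The cause of these shifts was not tested. No paired analysis was made between conditions, because each is 1 library and no key from its tags to animals was used here. HR+ and HR- cells of a library form a pair, but no test was run on these pairs, since the same contrast chose the cells. Genes under the chosen 20 CPM were not compared, although some of them separated at 5 CPM.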
